A study of Bienertia sinuspersici with 9 samples.

Results

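In the leaf transcriptome of Bienertia sinuspersici 7 unigenes were examined, each taken by its identifier because its best hit in Arabidopsis is a gene of chromosome segregation, cell plate formation, DNA replication or DNA repair. The choice was made with earlier results of these data known. They are 7 of 36907 unigenes in the TPM table, and all 7 are among the 11709 unigenes that were tested. In order of role they are HTR12 (BS1471_c1_g3_i1), TPX2 (BS3838_c0_g1_i33), CTF18 (BS4057_c2_g1_i1), BARD1 (BS14943_c0_g1_i4), CSLD5 (BS1346_c0_g1_i2), GEN1 (BS517_c0_g1_i61) and XPD (BS4160_c0_g1_i3). The names are those of the Arabidopsis hits, and the function of the Bienertia genes themselves was not measured.

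Bienertia is a desert plant that carries out C4 photosynthesis within single chlorenchyma cells, and the study sequenced its leaf mRNA to follow how that system is built. All plants were wild type, and each of 3 leaf stages gave 3 biological replicates. Young leaves measured less than 0.3 cm, intermediate leaves between 0.3 and 0.7 cm, and mature leaves more than 2 cm. From mature leaves the authors took the tip portion alone, so stage and leaf part cannot be told apart wherever mature leaves are compared. The sources used here do not give the plants behind a replicate. The p-values describe the spread between these libraries, and how much of it lies between plants is unknown.

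A growing leaf begins as dividing tissue, and its cells then leave the cell cycle, enlarge and differentiate. During division the chromosomes are copied and held together, a spindle attaches to the centromeres and pulls them apart, and in plants a new wall, the cell plate, is laid between the daughter nuclei. Repair proteins act on broken or damaged DNA, some of them mainly in dividing cells and others in any cell that transcribes its genes.

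Levels are given as the TPM values that the authors deposited, each a transcript's share of its library corrected for transcript length. The median unigene lay 0.575 lower in mature than in young leaves on the log2(TPM + 1) scale. For comparisons between stages each TPM value was therefore multiplied by the factor of its library in the authors' TPMTMM table (mean 0.858 for young, 0.932 for intermediate and 1.26 for mature leaves), which gives the scaled TPM used below. On this scale the median unigene changed by -0.09 from young to mature leaves. Log2 fold changes (Log2FC) are differences of log2(scaled TPM + 1), with adjusted p-values from limma over all 11709 unigenes and a threshold of 0.05, and they understate the change of low unigenes.

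The files hold no read counts, so it is unknown how many reads stand behind any single value, and counting intervals cannot be computed. Number 3 of the young libraries stood apart from the other 2, and 43.2% of unigenes had their highest young value and 42.6% their lowest in it. Within their own stages these shares were 43.1% and 40.7% for intermediate 3, and 40.2% and 40.8% for mature 1. The reference genes RPT6A and SAND, which the study chose as unchanged in these libraries, had Log2FC from young to mature of -0.07 each (adjusted p = 0.562 and 0.581). The 4 listed chlorenchyma genes (PEPC1, PPDK, PSAD2 and PORC) rose between these stages, against 23.1% of all unigenes. Their mean summed level was 3806 scaled TPM in young and 20230 in mature leaves.

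From young to mature leaves 6 of the 7 unigenes fell and none rose, against 27.5% of all unigenes tested that fell and 23.1% that rose. Because the 7 were chosen with earlier results of these data known, this share describes them alone. Of 8 other unigenes annotated to cell division or DNA repair 2 fell and 1 rose. CSLD5, BARD1, TPX2 and CTF18 fell furthest, the centromeric histone HTR12 and the helicase XPD fell by less, and GEN1 did not pass the test. The median Log2FC of the 7 was -1.32, beside -0.09 over all unigenes tested. In the same 6 unigenes every mature library lay below every young one, which held for 32.7% of all unigenes. Summed over the 7, the level went from 94.5 ± 10.9 scaled TPM in young leaves through 66.7 ± 3.27 at the intermediate stage to 40.6 ± 3.24 in mature leaves (SD, n = 3). In whole leaf tissue, fewer dividing cells and less RNA of these genes per cell cannot be told apart.

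**Figure D1:**
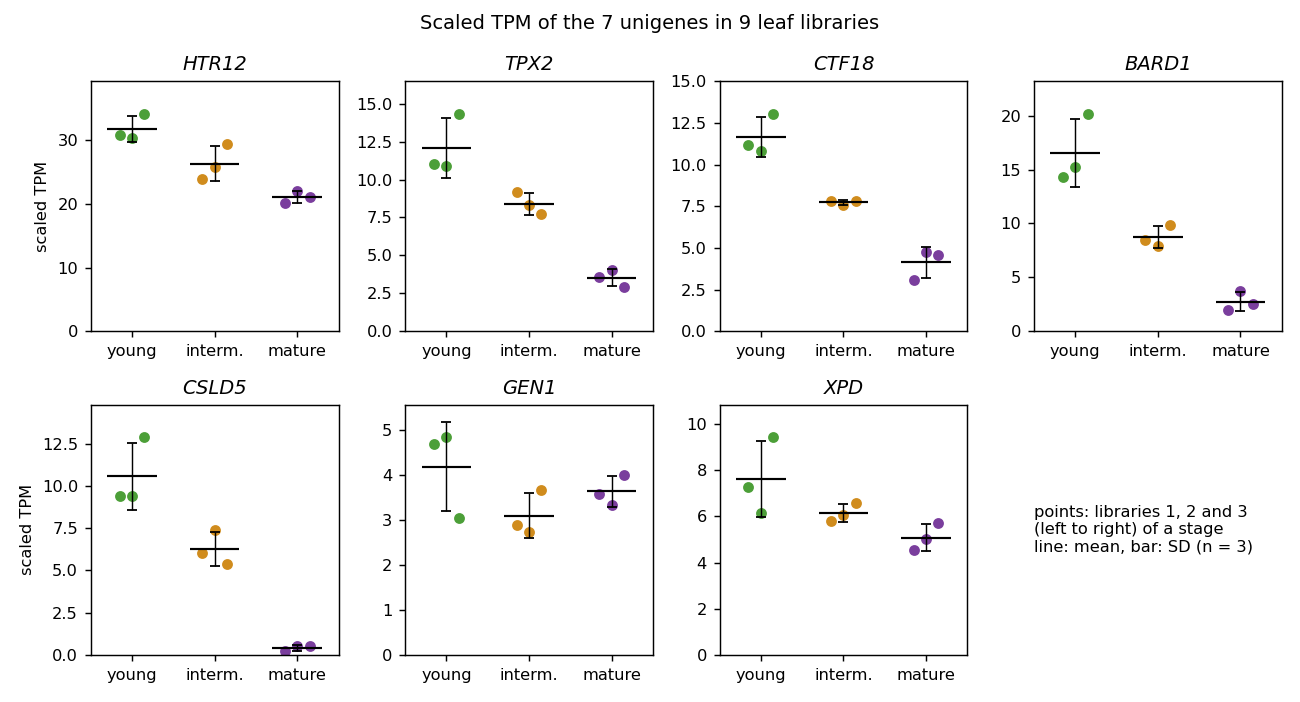
Scaled TPM of each unigene (vertical axes, each starting at 0) in the 3 libraries of each leaf stage, with libraries 1 to 3 from left to right, the mean as a line and the SD as a bar (n = 3). Mature libraries lie below all young ones for every unigene but GEN1, and CSLD5 comes close to 0 in mature leaves.

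HTR12 encodes the centromeric form of histone H3, which marks the place on each chromosome where the kinetochore assembles. Its TPM were 36.0, 36.1 and 39.0 in young 1, 2 and 3, 26.8, 28.4 and 29.4 in intermediate leaves, and 16.3, 17.9 and 16.1 in mature leaves. The 3 stages did not overlap in TPM, and HTR12 was the most abundant of the 7 in every library. Scaled, it went from 31.8 ± 2.06 through 26.3 ± 2.80 to 21.1 ± 0.957 (SD, n = 3). It fell from young to mature leaves with a Log2FC of -0.57 (standard error 0.10, adjusted p = 0.00174), a smaller change than the -1.10 that TPM without scaling give, which includes the shift of the median unigene. In young leaves 73.5% of the unigenes tested had a lower level than HTR12, and in mature leaves 59.8% did.

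TPX2 encodes a spindle protein that, in Arabidopsis and animals, promotes microtubule assembly at the start of mitosis and activates Aurora kinases. Its TPM were 12.9, 12.9 and 16.4 in young leaves, 10.3, 9.13 and 7.72 in intermediate leaves, and 2.88, 3.30 and 2.25 in mature leaves. No stage overlapped another, and the gap before the mature stage was the wider one. The Log2FC from young to mature leaves was -1.53 (standard error 0.15, adjusted p = 6.22e-05), from 12.1 ± 1.97 to 3.52 ± 0.564 scaled TPM.

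CTF18 encodes, as described in yeast and animals, the large subunit of an alternative clamp loader that works at replication forks and in the cohesion of sister chromatids. Its TPM were 13.0, 12.8 and 14.9 in young leaves, 8.82, 8.32 and 7.83 in intermediate leaves, and 2.48, 3.87 and 3.51 in mature leaves. The 3 stages were again separate, and the intermediate libraries were close to each other at 7.74 ± 0.152 scaled TPM. From 11.7 ± 1.22 scaled TPM in young leaves CTF18 fell to 4.14 ± 0.936 in mature leaves (Log2FC = -1.32, standard error 0.15, adjusted p = 0.000162).

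CSLD5 encodes a cellulose synthase-like D protein, which in Arabidopsis takes part in building the cell plate. Its TPM were 11, 11.2 and 14.7 in young leaves, 6.81, 8.11 and 5.41 in intermediate leaves, and 0.19, 0.41 and 0.41 in mature leaves. Every mature library was thus more than 10-fold below every intermediate one, and the mature level was under 1 TPM in all 3. Mean scaled TPM were 24.9 times as high in young leaves (10.6 ± 1.99) as in mature leaves (0.425 ± 0.166). The Log2FC was -3.02 (standard error 0.17, adjusted p = 5.59e-06), and its size hung on the value added before the log, since it was -4.39 with 0.1 added in place of 1, and -2.45 in the deposited TPMTMM, which were made from TPM rounded to whole numbers plus 1. Ranked from the most negative Log2FC, CSLD5 was 136th of the 11709 unigenes.

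BARD1 encodes the partner of BRCA1, and in Arabidopsis it acts in the repair of DNA breaks by recombination and in the shoot meristem. Its TPM were 16.7, 18.1 and 23.1 in young leaves, 9.53, 8.67 and 9.84 in intermediate leaves, and 1.60, 3.01 and 1.92 in mature leaves. Among the 7 unigenes BARD1 was second to HTR12 in each young library and sixth by mean TPM in mature leaves. With its 2 isoforms added, TPX2 (19.85, 24.61 and 27.01 TPM) lay above BARD1 in each young library. BARD1 fell from 16.6 ± 3.17 through 8.73 ± 0.999 to 2.73 ± 0.887 scaled TPM. Its Log2FC from young to mature leaves was -2.25 (standard error 0.20, adjusted p = 3.62e-05), the 322nd most negative of all unigenes.

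XPD encodes a DNA helicase of the general transcription factor TFIIH, which serves both transcription by RNA polymerase II and nucleotide excision repair. Its TPM were 8.51, 7.31 and 10.8 in young leaves, 6.55, 6.68 and 6.57 in intermediate leaves, and 3.67, 4.07 and 4.38 in mature leaves. In scaled TPM the stages lay closer, at 7.62 ± 1.66, 6.15 ± 0.378 and 5.09 ± 0.598. The Log2FC from young to mature leaves was -0.49 (standard error 0.16, adjusted p = 0.0292). This call was lost without young 1 (adjusted p = 0.0662), young 3 (0.0869), mature 1 (0.0690) or mature 2 (0.0695). It was also lost in 5 other settings, among them the deposited TPMTMM (0.0594) and a fit over all 36907 unigenes (0.0772).

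GEN1 encodes a nuclease that, in Arabidopsis and animals, cuts the crossed DNA strands (Holliday junctions) left by recombination. Its TPM were 5.47, 5.76 and 3.49 in young leaves, 3.25, 3.01 and 3.68 in intermediate leaves, and 2.90, 2.71 and 3.07 in mature leaves. The stages overlapped once scaled, at 4.20 ± 0.991, 3.10 ± 0.505 and 3.64 ± 0.340, and young 3 was the lowest young library for this unigene alone of the 7. The Log2FC from young to mature leaves was -0.15 (95% interval -0.54 to 0.25, adjusted p = 0.512), so a fall like that of TPX2 or BARD1 lies outside the interval. The direction was not settled either, since it was 0.066 in the deposited TPMTMM and -0.58 (adjusted p = 0.0157) in TPM without scaling, close to the shift of the median unigene there.

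The GEN1 unigene is 1 of 12 isoforms that the assembly gives for its gene, and RSEM divides reads among such similar sequences, so the value of a single isoform is uncertain. It held 4.42% to 10.7% of the summed TPM of the 12 in each library. The sum was 72.3, 67.3 and 78.9 TPM in young leaves, 56.7, 52.4 and 48.8 in intermediate leaves, and 27.3, 35.7 and 28.8 in mature leaves. Unlike the GEN1 unigene the sum therefore separated the 3 stages, going from 62.5 ± 6.25 through 48.9 ± 1.39 to 38.4 ± 5.19 scaled TPM, a log2 difference of -0.69 between young and mature leaves. The exact permutation test (two-sided, 3 libraries against 3) gave p = 0.1, the smallest that such a design allows, and the sum was examined after the single isoforms had been seen.

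The most abundant isoform of that gene, BS517_c0_g1_i40, had 19.7, 23.5 and 19.1 TPM in young leaves and 8.65, 12.3 and 5.65 in mature leaves. It was the only other one among the unigenes tested, and it fell from young to mature leaves (Log2FC = -0.69, standard error 0.21, adjusted p = 0.0254). In a fit over all 36907 unigenes, i40 (adjusted p = 0.0439) and BS517_c0_g1_i12 (Log2FC = -1.52, adjusted p = 0.00386) were called among the other 11 isoforms, and BS517_c0_g1_i9 was the only one with a positive Log2FC (0.60, adjusted p = 0.113). Isoforms i48 and i31 were listed at 0 in 1 and 2 libraries. Which of the other isoforms match GEN1 of Arabidopsis is not given in the sources used here.

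**Figure D2:**
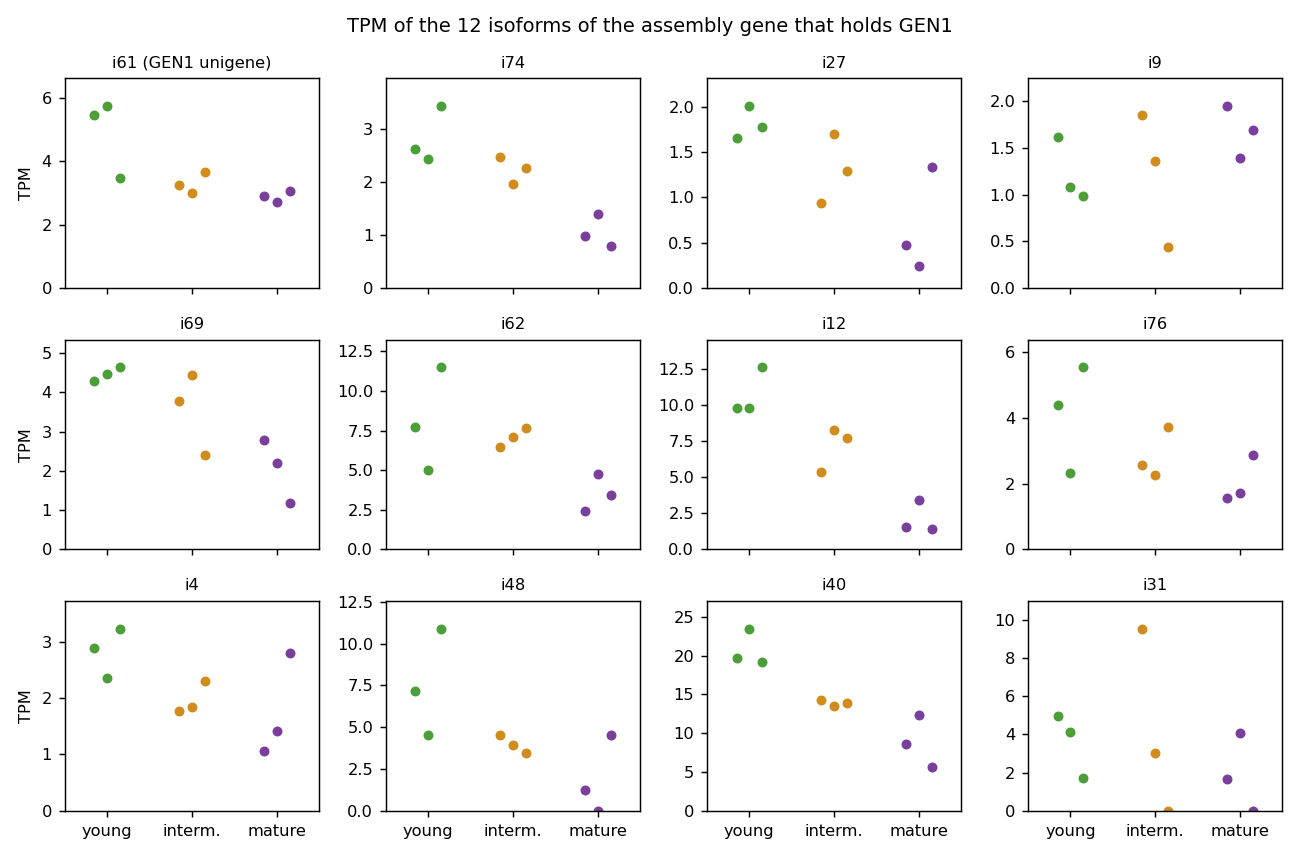
TPM of the 12 isoforms of the assembly gene that holds the GEN1 unigene (i61), in the 3 libraries of each leaf stage, with a separate vertical axis from 0 for each isoform. The GEN1 unigene stays between 2.71 and 5.76 TPM, while i40 goes from 19.1 to 23.5 in young leaves down to 5.65 to 12.3 in mature leaves.

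HTR12 and TPX2 have 1 further isoform each, and CTF18, BARD1, CSLD5 and XPD have none in the TPM table. The second TPX2 isoform had 7, 11.7 and 10.6 TPM in young, 5.86, 8.03 and 5.30 in intermediate, and 2.03, 0.74 and 0.96 in mature leaves. It fell like the first, with a Log2FC from young to mature leaves of -1.90 (adjusted p = 0.00122 over 36907 unigenes). The second HTR12 isoform was lowest of the young libraries in young 3, at 2.36 TPM against 6.87 and 7.39, where the first was highest. Added together, both HTR12 isoforms varied little among young libraries, at 36.5 ± 0.277 scaled TPM, and went to 30.2 ± 1.97 in intermediate and 22.7 ± 0.616 in mature leaves.

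Between young and intermediate leaves only BARD1 passed the test, with a Log2FC of -0.84 (standard error 0.20, adjusted p = 0.0450). That call was lost under several other settings, so when the change began is not settled. Of all unigenes 2.86% fell in this comparison. All 7 had a negative Log2FC, from -0.25 for XPD to -0.84 for BARD1, as did 52.1% of all unigenes, and for HTR12, TPX2, CTF18, BARD1 and CSLD5 the stages did not overlap in scaled TPM, as for 17.4% of all unigenes with the intermediate stage lower. CSLD5 had a Log2FC of -0.67 (adjusted p = 0.0588), CTF18 -0.53 (0.0803), TPX2 -0.47 (0.107), HTR12 -0.27 (0.169), GEN1 -0.33 (0.334) and XPD -0.25 (0.423).

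The labels do not say whether replicate numbers mark pairs. Deviations from the stage mean correlated between same-numbered young and intermediate libraries (r = 0.468, 0.445 and 0.692 for numbers 1, 2 and 3). Each stage mean is that of its own 3 libraries, so these 3 values are not independent of each other. Young 1 ran closer to intermediate 2 (0.508), however, and young 2 to intermediate 1 (0.540), so a pairing by number is not settled. With the replicate number as a block, in a fit without the mature libraries, 4 unigenes passed. They were BARD1 (adjusted p = 0.00432), CTF18 (0.0147), CSLD5 (0.0272) and TPX2 (0.0441). In that fit 10.1% of all unigenes fell. With the block over all 9 libraries none of the 7 passed, BARD1 having an adjusted p of 0.0504. The call of BARD1 rested on every library of both stages: leaving out any 1 of young 1, 2 and 3, intermediate 1, 2 and 3 or mature 3 took its adjusted p to between 0.0593 and 0.134, with a Log2FC of -0.70 to -0.94.

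From intermediate to mature leaves 5 of the 7 fell, against 19% of all unigenes. CSLD5 had a Log2FC of -2.35 (standard error 0.17, adjusted p = 4.23e-05), from 6.28 ± 1.00 to 0.425 ± 0.166 scaled TPM. The Log2FC was -1.41 for BARD1 (standard error 0.20, adjusted p = 0.000991), -1.06 for TPX2 (0.15, 0.00103), -0.78 for CTF18 (0.15, 0.00497) and -0.30 for HTR12 (0.10, 0.0486). The last was a call at the edge of the threshold that was lost when any library but intermediate 1 was left out (adjusted p up to 0.128). XPD (-0.24, adjusted p = 0.281) and GEN1 (0.18, adjusted p = 0.458) did not pass. For 6 of the 7, all but GEN1, every mature library lay below every intermediate one, as for 26.1% of all unigenes.

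**Figure D3:**
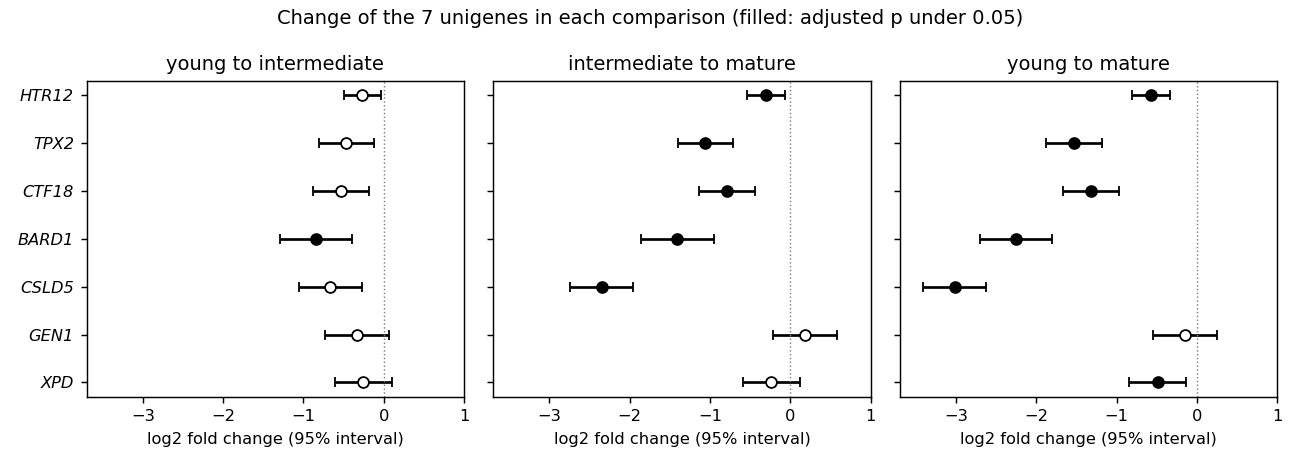
Log2 fold change of each unigene (points) with its 95% interval from limma (bars) in the 3 comparisons of leaf stages, filled where the adjusted p over 11709 unigenes was under 0.05. One unigene passed between young and intermediate leaves, 5 between intermediate and mature leaves and 6 between young and mature leaves, with CSLD5 furthest to the left at -3.02.

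Whether a unigene fell more in the second step than in the first was tested after the values had been seen. CSLD5 was the only one of the 7 to pass, its second step differing from the first by -1.68 on the log2 scale (standard error 0.30, adjusted p = 0.0216), a call made for 2.24% of all unigenes in that direction. It was lost without young 1 (adjusted p = 0.0685), young 2 (0.0653), intermediate 1 (0.114) or intermediate 2 (0.132). It was also lost in 3 other settings, among them the deposited TPMTMM (0.0576). The difference was -0.59 for TPX2 (adjusted p = 0.324), -0.56 for BARD1 (0.5), -0.25 for CTF18 (0.747), -0.04 for HTR12 (0.957), 0.02 for XPD (0.987) and 0.51 for GEN1 (0.482).

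The ratio of 2 unigenes within 1 library does not depend on the scaling between libraries. Relative to the TPM of HTR12, BARD1 stood at 46.3% to 59.1% in young, 30.6% to 35.5% in intermediate and 9.80% to 16.8% in mature leaves. CSLD5 went from 30.5% to 37.7% in young leaves to 1.16% to 2.54% in mature leaves. TPX2 went from 35.7% to 42.0% to 14.0% to 18.4%, and CTF18 from 35.5% to 38.2% to 15.2% to 21.8%. For these 4 every mature library lay below every young one, so they fell by more than HTR12 did, and each exact permutation test (two-sided, 3 libraries against 3) gave p = 0.1, the smallest it can reach.

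XPD stood at 20.3% to 27.6% of HTR12 in young, 22.4% to 24.4% in intermediate and 22.5% to 27.2% in mature leaves, with all 3 ranges overlapping (exact permutation p = 1). GEN1 was at 8.94% to 16.0% in young and 15.1% to 19.0% in mature leaves, also overlapping (exact permutation p = 0.3). The 6 ratios were examined after the levels had been seen, and adjusting over the 6 cannot bring any of these p-values below 0.1. Among the 7 unigenes XPD came second to HTR12 by mean TPM in mature leaves, above CTF18 in each library. In young leaves it had been sixth.

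**Figure D4:**
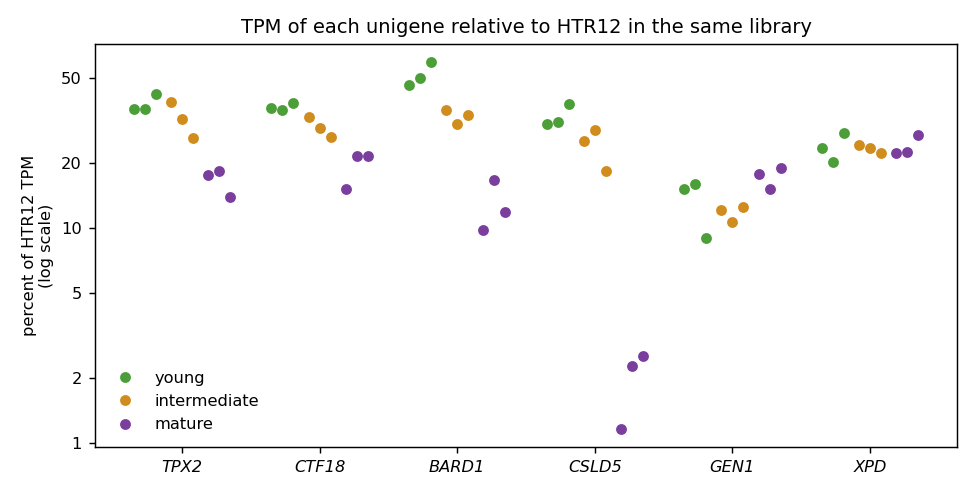
TPM of 6 unigenes as a percentage of the TPM of HTR12 in the same library (vertical log axis), with 3 libraries per leaf stage as points. TPX2, CTF18, BARD1 and CSLD5 go down from young to mature leaves, to 1.16% to 2.54% for CSLD5, while XPD stays between 20.3% and 27.6%.

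The 7 unigenes can be ordered by level, since TPM are per length. Young leaves had HTR12 first, then BARD1, TPX2, CTF18, CSLD5, XPD and GEN1. The ranges of TPX2 and CTF18 overlapped, as did those of CTF18 and CSLD5, and the other neighbours had separate ranges. In mature leaves the order was HTR12, XPD, CTF18, GEN1, TPX2, BARD1 and CSLD5, with the ranges of neighbours overlapping from XPD to BARD1. CSLD5 lay below all others in each mature library, and 2.26% of the unigenes tested had a lower mean level there, where 35.8% had in young leaves. These orders rank single isoforms for HTR12, TPX2 and GEN1, and sums over isoforms give another order. In young leaves the sums were 67.3 to 78.9 TPM for the assembly gene of GEN1, 41.4 to 43.5 for HTR12 and 19.85 to 27.01 for TPX2.

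Across the 9 libraries the logged levels of CTF18 and BARD1 ran most closely together (Pearson r = 0.988), and among the 6 unigenes other than GEN1 r was between 0.799 and 0.988. With GEN1 r was between -0.003 and 0.212 for the other 6. The 9 points fall in 3 stages, which they share. After the stage means were taken away, CTF18 and BARD1 still had r = 0.810, while GEN1 ran against TPX2 (r = -0.884) and CSLD5 (r = -0.753). Young 3 gave the highest young value of 6 of the 7 and the lowest of GEN1, and without it the Log2FC from young to mature leaves ranged from -2.88 for CSLD5 to -0.32 for GEN1.

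Among 163 named unigenes with a mean of at least 5 scaled TPM, the one most like CSLD5 over the 9 libraries was SPL8, a gene of the SQUAMOSA promoter-binding family (r = 0.995), followed by CEL2 (0.981). VAMP726, a vesicle fusion protein by its name, was nearest to TPX2 (r = 0.984), and PRP39 and AT1G03687 were nearest to HTR12 (0.967 and 0.968). LSM2 was nearest to XPD at r = 0.916, and no candidate exceeded r = 0.459 for GEN1. The candidates came only from 200 names in the first rows of the study's annotation, so unigenes outside these were not compared. The likenesses are descriptions over libraries that share the order of stages.

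Of 8 other unigenes annotated to cell division or DNA repair, chosen by their names and functional terms, 2 fell and 1 rose between young and mature leaves. The other 5 did not pass, and the median Log2FC was -0.40. Of all unigenes tested 27.5% fell and 23.1% rose, so a fall was about as frequent among these 8 as among all. KINUB, a kinesin with armadillo repeats, had 16.7, 17.2 and 21.7 TPM in young, 12.6, 13.6 and 13.6 in intermediate and 3.43, 6.74 and 6.55 in mature leaves. It had a Log2FC of -1.12 (standard error 0.23, adjusted p = 0.00397) from young to mature leaves and of -0.79 (adjusted p = 0.0298) from intermediate to mature leaves. PRP19A, a ubiquitin ligase of the splicing machinery also annotated to DNA repair, fell by 0.43 (standard error 0.11, adjusted p = 0.0125).

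MGP, a zinc finger protein of asymmetric cell division in the Arabidopsis root, rose by 0.53 (standard error 0.18, adjusted p = 0.0325), though its mean TPM without scaling were 36.1 in young and 36.2 in mature leaves. The remaining 5 were AT1G03180 (Log2FC = -0.65, adjusted p = 0.0774), F21M11.3 (-0.92, 0.0523), AT1G02960 (-0.38, 0.196), RABA3 (0.04, 0.900) and SWI2 (0.09, 0.459). None of the 8 passed between young and intermediate leaves, where 5.83% of all unigenes did. KINUB alone passed between intermediate and mature leaves, where 34.5% of all unigenes did.

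Of 3 genes of proliferation and lineage, SBT1.2, a subtilase that in Arabidopsis limits stomatal density, rose from young to mature leaves (Log2FC = 0.60, adjusted p = 0.0356). So did 23.1% of all unigenes. None of the 3 passed in the other comparisons. GIF2, a coactivator of growth-regulating factors, had a Log2FC of -0.28 (adjusted p = 0.282) and RING1B, a subunit of a Polycomb complex, -0.37 (adjusted p = 0.143).

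Of 4 markers of the epidermis 2 fell from young to mature leaves, against 27.5% of all unigenes. From intermediate to mature leaves 3 of the 4 fell, against 19% of all unigenes. CER1, which takes part in making the alkanes of leaf wax, fell by 3.83 (adjusted p = 0.000225) and KCS1, an elongase of very-long-chain fatty acids, by 1.31 (adjusted p = 5.76e-05) from young to mature leaves, while KCS2 (-0.29, adjusted p = 0.153) and GPAT4 (-0.25, adjusted p = 0.0904) did not pass. Their summed level was 377 to 465 scaled TPM in young, 443 to 473 in intermediate and 256 to 290 in mature leaves, and none was at 0 in any library. From young to intermediate leaves none of the 4 epidermal markers passed, and 1 of the 7 unigenes did. Of all unigenes 5.83% did. The chlorenchyma markers ran the other way, and 4 of 4 rose from intermediate to mature leaves, against 15.5% of all unigenes. The part of cell type proportions in the changes of the 7 was not tested.

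The choice of values changed the size of the Log2FC more than its direction. In the deposited TPMTMM, which begin at 1 before scaling, the Log2FC from young to mature leaves was smaller in size for all 7 than with unrounded TPM, and in TPM without scaling it was more negative for all 7.

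**Figure D5:**
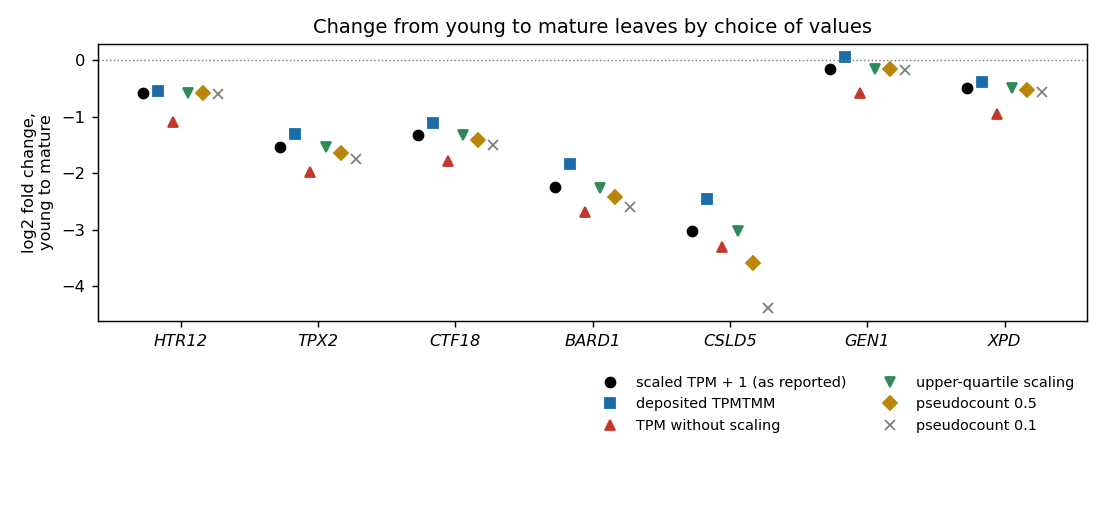
Log2FC of each unigene between young and mature leaves under 6 choices of values, with log2(scaled TPM + 1) as reported in black. CSLD5 spans -2.45 in the deposited TPMTMM to -4.39 with 0.1 added before the log, and only GEN1 crosses 0, at 0.066 in the deposited TPMTMM.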

How the data were processed

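Reads of all 9 libraries were trimmed (Trimmomatic), assembled together (Trinity) and quantified (RSEM) by the authors, who then removed redundant transcripts (versions of Trimmomatic and RSEM not given in the sources used here). They deposited TPM of 36907 unigenes and, for 11709 of them, TPMTMM, that is TPM rescaled by a trimmed-mean (TMM) normalization. For 11708 of 11709 unigenes the deposited TPMTMM equalled TPM rounded to whole numbers, plus 1, times 1 factor per library (tolerance 0.001). Because that rounding weighs on low unigenes, these factors were applied to unrounded TPM.

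The study tested counts with edgeR, but TPM are not counts. Limma 3.58.1 (lmFit, eBayes with trend) in R 4.3.3 was therefore fitted to log2(scaled TPM + 1) of 11709 unigenes in all 9 libraries, with stage as the only term and Benjamini-Hochberg adjustment. The fit was tested on simulated data with 200 changed unigenes. Other tables used Python 3.11.15, pandas 2.3.3 and numpy 2.4.6, and figures matplotlib 3.10.9.

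The 7 members and all lists were chosen with earlier results of these data known. Named genes are the 7, their isoforms, the listed genes and, for each of the 7, the 2 most correlated of the named unigenes with a mean of at least 5 scaled TPM. The only candidate names used were 200 from the first rows of the study's annotation. The contrast of the 2 steps, the ratios to HTR12 and the isoform sums were added after seeing the data. Whether replicate numbers mark pairs was judged from how deviations from the stage means correlate across unigenes. Same-numbered young and intermediate libraries had r = 0.468, 0.445 and 0.692. Young 1 and young 2, however, ran closer to intermediate 2 (0.508) and intermediate 1 (0.540). The reported fit holds no term for pairs. The replicate number was a block in alternative fits only, some of them with mature libraries. For mature 2 the correlations with its number were negative (-0.420 with young 2, -0.456 with intermediate 2), so a pairing of mature libraries by number is not settled either. With the same-numbered young and intermediate libraries they were positive for mature 1 (0.468 and 0.577) and mature 3 (0.402 and 0.427).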

Additional observations from a re-analysis of the deposited data

How the results depend on the processing

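From young to mature leaves 5 to 7 of the 7 unigenes were called in every alternative run, and 5 to 6 when 1 library was left out. The differences came from XPD and GEN1. From intermediate to mature leaves 4 to 6 were called, and 4 to 5 when 1 library was left out. The count between young and intermediate leaves was unstable: 1 as reported, 4 in TPM without scaling, 2 in a fit of the 2 stages, 0 with upper-quartile scaling, with 0.5 or 0.1 added before the log, over all unigenes of the TPM table or over those with a mean of at least 1 scaled TPM, and 0 to 3 when 1 library was left out. With the replicate block it was 0 over the 9 libraries and 4 in the fit of young and intermediate leaves. With the block in a fit of 2 stages, XPD lost its call from young to mature leaves (adjusted p = 0.0639) and HTR12 from intermediate to mature leaves (0.146). Whether the numbers mark pairs there is not known. GEN1 turned in direction from young to mature leaves in the deposited TPMTMM (0.066) and from intermediate to mature leaves in TPM without scaling (-0.15). Of the step differences near 0, that of HTR12 ran from -0.17 to 0.12 when 1 library was left out (positive without intermediate 3) and that of XPD from -0.13 to 0.14 (negative without young 3, intermediate 1 or mature 3), and that of XPD was also negative in the deposited TPMTMM (-0.049), in TPM without scaling (-0.23) and with upper-quartile scaling (-0.035).

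Over all unigenes, 683 were called between young and intermediate leaves, against 377 with upper-quartile scaling, 328 over the whole TPM table, 182 over those with a mean of at least 1, 2624 with the replicate block in a fit of the 2 stages, and 83 to 1203 when 1 library was left out. From young to mature leaves the 5922 calls (2705 up, 3217 down) became 11057 over the whole table and 10504 with a mean of at least 1, and TPM without scaling gave 1297 rises and 6663 falls. Between intermediate and mature leaves 4034 (1811 up, 2223 down) became 6304, 6081 and, in TPM without scaling, 6419 (772 up, 5647 down). The cause was not tested. No counts are at hand, so what depth limits is unknown, and CSLD5 in mature leaves, under 1 TPM, is the least certain level.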
